A study of Mus musculus with 9 samples.

Results

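Potassium channel genes were examined in the lungs of mice that carry extra copies of the chloride channel CFTR. Members were all probe sets (groups of short probes read together as 1 value) annotated to exactly 1 gene whose symbol begins with Kcn followed by a family letter and a number. This rule took 90 of 22690 probe sets, which cover 62 genes of 12393 with a probe set of 1 symbol, and it used no measured value. RNA came from adult FVB/N mouse lung and was measured on 9 MOE_430A arrays, a mouse expression array, with 3 arrays in each of 3 groups. WT mice had no transgene, HE mice had 1 allele of a transgene that carries normal human CFTR cDNA under the Sftpc promoter, and HO mice had 2 alleles. The labels give the mouse's own Cftr as intact on both alleles in HE and HO mice, so by the labels the comparisons are of added CFTR and not of its loss. How much CFTR the transgene added was not measured here. The Sftpc promoter is that of a surfactant protein gene of alveolar type II cells, while the arrays measured RNA of the lung as a whole. The genotype field and the title of HO replicate 2 give 2 alleles, whereas its description writes 1; it was kept as HO, and its values are given with and without it where they decide a difference. Nothing in the labels ties each array to an animal of its own; a p-value therefore measures only how these samples spread, and that spread may be technical in part.

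Potassium channels let potassium leave the cell along its gradient and so set the membrane voltage. In an epithelium that secretes chloride through CFTR, channels in the basolateral membrane return the potassium brought in by the sodium pump and the sodium-potassium-chloride cotransporter, and keep the cell negative enough for chloride to go on leaving through the apical membrane. In arteries and airways the same family sets the tone of smooth muscle. Pore-forming subunits fall into voltage-gated channels (Kcna to Kcnd, Kcnh, Kcnq, Kcns), calcium-activated channels (Kcnma, Kcnn, with the related Kcnu), inward rectifiers (Kcnj) and background or K2P channels (Kcnk), and auxiliary subunits (Kcnab, Kcne, Kcnip, Kcnmb) alter their gating and traffic.

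Most potassium channel probe sets gave little signal in this tissue. Values are log2 of a linear intensity that the authors scaled to the same mean on every array, with low values raised to a floor of 4.67. The low range was set as the lowest 40% of all non-control probe sets by mean (below 8.90) and the high range as the top 25% (at or above 10.86). Of the 90 channel probe sets, 72 (80%) lay in the low range, 17 in the middle range and 1 in the high range, and the median member stood at the 22.4th percentile of all probe sets. The 18 above the low range represent 17 genes, and for 45 genes every probe set was low. Nearest above the boundary were Kcnab1 at 8.92 and Kcnab2 at 8.94, and nearest below it Kcnc1 at 8.71 and Kcnh3 at 8.65. A low signal is not absence: 27 control probe sets for bacterial transcripts had means of 4.67 to 7.47, and 47 channel probe sets (41 genes) had means above the highest of them. Whether bacterial RNA was added to these samples was not tested, and this comparison was chosen after the values were seen. At the other end, 4 probe sets stood at the floor on all 9 arrays, those of Kcne1, Kcns1, 1 of 2 for Kcnab3 and 1 of 5 for Kcnj6. Signal is compared here only as a position among all probe sets, because different probe sets bind with different strength.

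**Figure D1:**
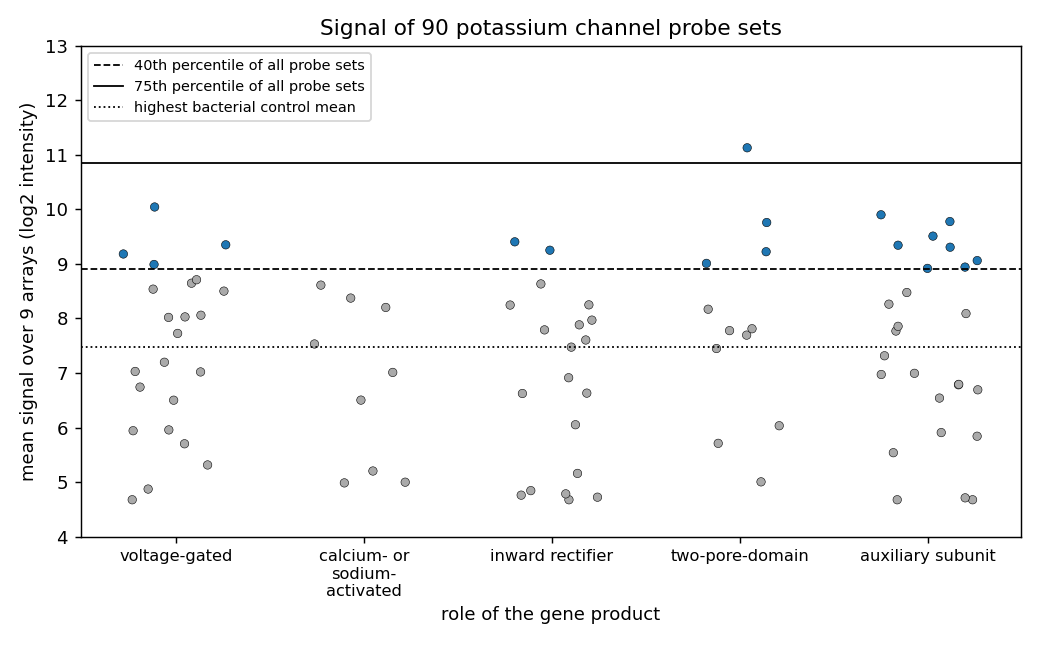
Mean log2 intensity over 9 arrays (vertical axis) of the 90 potassium channel probe sets, 1 point each, by role (horizontal axis; K2P channels are written as two-pore-domain), with lines at the 40th percentile (8.90), the 75th percentile (10.86) and the highest bacterial control mean (7.47). 72 grey points lie below the 40th percentile, 1 blue point, Kcnk2, lies above the 75th, and no calcium-activated channel passes 8.90.

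By role, 4 of 12 K2P probe sets passed the low range, 8 of 26 for auxiliary subunits, 4 of 23 for voltage-gated channels, 2 of 20 for inward rectifiers and 0 of 9 for the calcium-activated group. These counts use the mean over 9 arrays. In the calcium-activated group the stronger probe set of Kcnma1, at a mean of 8.61, was above the low range on 5 arrays. Its group means were 9.27 in WT, 7.63 in HE and 8.94 in HO. On every one of the 9 arrays, 9 probe sets passed: those of Kcnk2, Kcnq1, Kcnmb2, Kcne2, Kcnk1, Kcnmb4, Kcnmb1, Kcnj3 and Kcnk5. Of 20 genes with several probe sets, Kcnmb2 had both above the low range, and 5 (Kcnab1, Kcnab2, Kcnk1, Kcnk5 and Kcnmb1) had 1 above and 1 below, so a low value may belong to a probe set rather than to its gene.

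No potassium channel passed the test in any comparison of genotypes. limma was fitted to 13576 probe sets above the low range, and p-values were adjusted over all of them by the Benjamini-Hochberg method with a threshold of 0.05. Of the 18 channel probe sets tested, 0 passed for HO against WT, 0 for HE against WT, 0 for HO against HE, 0 for the mean of both transgenic groups against WT and 0 in the F test over the 3 groups; over all 13576 the share that passed was 0% in each. The lowest adjusted p of a channel by limma was 0.992 for HO against WT and 1 in each of the others, against 0.602, 0.685, 1 and 0.362 for the lowest of any probe set in the 4 pairwise comparisons and 1 in the F test. At an unadjusted p under 0.05, 1 of 18 passed for HO against WT (Kcne4), beside 4.49% of all probe sets tested. For HE against WT it was 0 of 18 beside 3.11%, for HO against HE 0 of 18 beside 2.56%, for the transgenic mean against WT 0 of 18 beside 4.19%, and in the F test 0 of 18 beside 3.09%. With the replicate number as a block, 3 of 18 passed the unadjusted threshold for HO against WT (Kcne4, Kcna2 and Kcnmb2), each at an adjusted p of 0.826 by limma, and 808 of 13576 did so over all. Single arrays moved these unadjusted counts: for HO against WT it was 0 without HO replicate 2, 0 without WT replicate 3 and 4 without HO replicate 1. For HO against HE it was 1 without HE replicate 2, 1 without HO replicate 1 and 2 without HO replicate 3, for HE against WT 1 without HE replicate 1, and for the transgenic mean 1 without HO replicate 1.

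A miss does not show that the groups were alike, so the intervals of the differences are given. The 95% intervals of the 18 probe sets had a median half-width of 0.44 on the log2 scale, from 0.27 for Kcnq1 to 1.11 for Kcna2. They lay within a 2-fold difference in either direction for 16 of 18 in HO against WT (not for Kcne4 and Kcna2), for 17 in HE against WT and for 17 in HO against HE (not for Kcna2 in either). They lay within a 1.5-fold difference for 9, 10 and 10. The median difference of the channels from WT was -0.045 in HO and -0.081 in HE, against -0.005 and -0.007 for all probe sets tested, and 6 were higher and 12 lower in each. Both comparisons share the WT arrays. In RNA from a whole tissue, fewer cells of a type and less RNA per cell cannot be told apart.

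K2P channels pass potassium at rest. Kcnk2 (TREK-1), the 1 channel probe set in the high range and a channel opened by stretch and by fatty acids, stood at the 78.9th percentile. Its log2 intensity was 11.28, 11.24 and 11.13 in WT, 11.43, 10.90 and 10.86 in HE, and 11.31, 10.77 and 11.27 in HO. The groups overlapped, with low values on 2 HE arrays and 1 HO array. The difference from WT was -0.10 ± 0.188 (SE, n = 3 per group; 95% interval -0.51 to 0.31) in HO and -0.15 in HE (interval -0.56 to 0.26).

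Kcnk1 (TWIK-1), a weakly conducting K2P channel, read 9.71, 9.63 and 9.77 in WT, 9.76, 9.74 and 10.14 in HE, and 9.96, 9.46 and 9.69 in HO. The HO values lay on both sides of the WT values, and the difference was -0.001 (95% interval -0.35 to 0.35). The other Kcnk1 probe set, low at a mean of 7.78, gave 0.73 for HO minus WT and 0.65 for HE minus WT. Its SE was 0.68 for each in the fit without the filter, and its groups overlapped. Kcnk5 (TASK-2), an alkaline-activated channel of transporting epithelia, read 9.05, 9.15 and 9.05 in WT, 9.35, 9.35 and 9.25 in HE, and 9.67, 9.19 and 8.96 in HO. All HE values were above all WT values, by 0.23 on average (interval -0.14 to 0.60), while HO spread across both groups. It was the 1 of 18 channel probe sets with HE above WT and no overlap, beside 3.25% of all tested. HO minus WT was 0.19 on this probe set and -0.60 on the other Kcnk5 probe set. The latter gave -0.01 for HE minus WT (SE 0.903 for each, fit without the filter). Its mean was 5.71, and it was at the floor on 2 arrays. Kcnk7, the fourth K2P probe set above the low range, differed by -0.04 in HO and -0.08 in HE. Kcnk3 (TASK-1), the acid-sensitive channel of pulmonary artery muscle, had 3 probe sets with means in the low range, 8.17, 7.81 and 6.03. The first read 6.80, 7.79 and 8.12 in WT, 8.61, 8.32 and 9.19 in HE, and 9.02, 9.02 and 6.67 in HO, and so passed 8.90 on 3 arrays. All its HE values were above all WT values, by 1.14 ± 0.678 (SE) in the fit without the filter (limma's unadjusted p = 0.136, adjusted 1), while the groups overlapped on the other 2 probe sets.

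**Figure D2:**
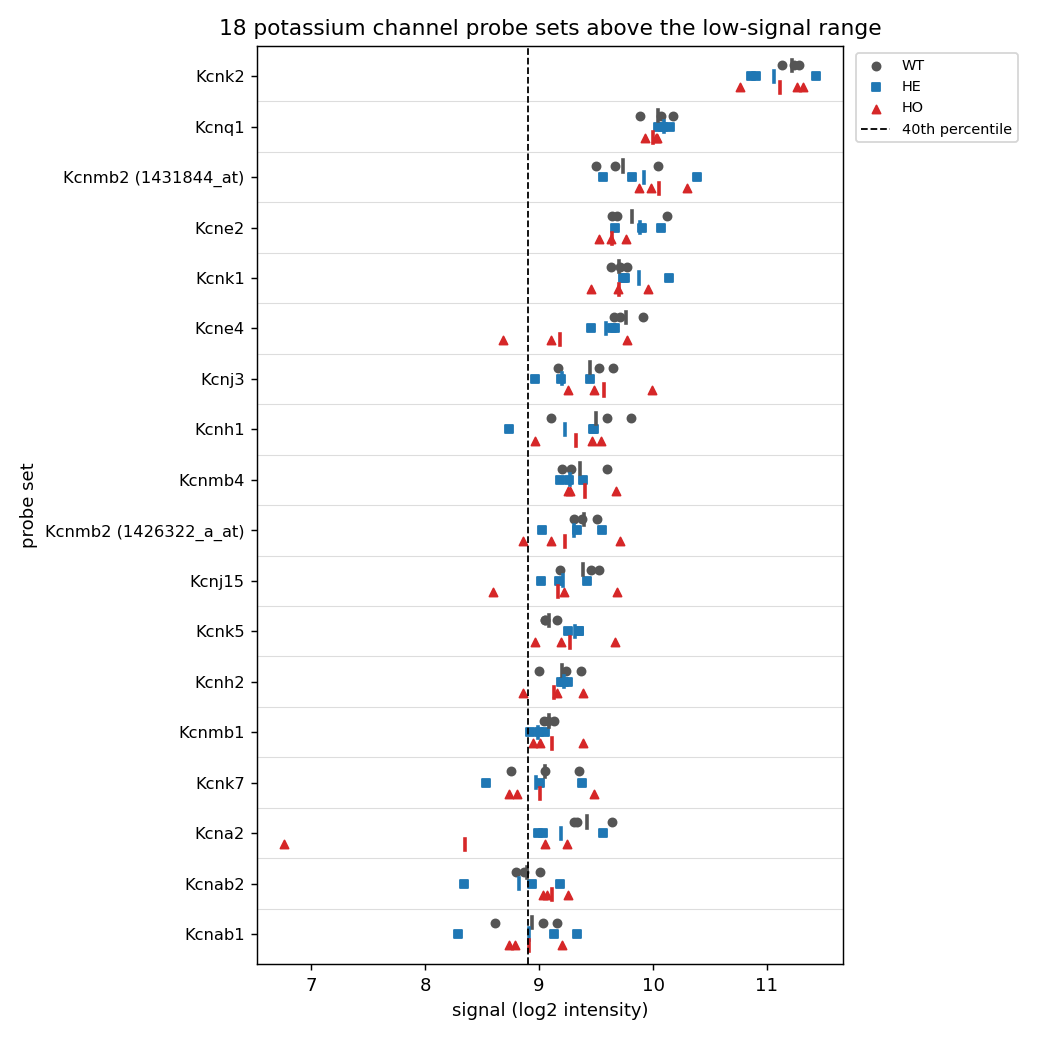
Log2 intensity (horizontal axis) of the 18 potassium channel probe sets above the low range, 1 row each, with a point for each of 9 arrays (grey circles WT, blue squares HE, red triangles HO) and a short bar at each group mean; the dashed line is the 40th percentile. In the Kcna2 row HO replicate 2 lies at 6.76 while the other arrays lie between 8.99 and 9.64, and in most rows the groups overlap.

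Among voltage-gated channels, Kcnq1 (KvLQT1), the pore subunit of the basolateral cAMP-activated current of airway epithelium, had the highest position, the 60.6th percentile. Kcnq1 read 10.18, 9.89 and 10.07 in WT, 10.09, 10.15 and 10.04 in HE, and 10.03, 10.03 and 9.93 in HO. It was among the most even of the channels across arrays, and its interval for HO minus WT, -0.32 to 0.22, was the narrowest of the 18. All HO values lay just below all HE values, with a difference of -0.10 ± 0.122 (SE), the 1 of 18 with HO below HE and no overlap, beside 3.19% of all tested.

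Kcna2 (Kv1.2), a delayed rectifier of neurons and arterial muscle, read 9.64, 9.33 and 9.31 in WT, 8.99, 9.04 and 9.56 in HE, and 9.05, 6.76 and 9.24 in HO. All HO values were below all WT values, the 1 of 18 to lie so, beside 4.9% of all tested. The difference was -1.07 ± 0.506 (SE; 95% interval -2.18 to 0.04; limma's unadjusted p = 0.0571, adjusted 0.992). It rested on HO replicate 2: without that array it was -0.277. With the replicate block the unadjusted p by limma was 0.0351, with HO minus WT at -0.59, -2.57 and -0.06 in the 3 pairs. Kcnh1, a slowly activating channel mostly known from brain, read 9.60, 9.11 and 9.80 in WT, 9.48, 8.73 and 9.47 in HE, and 9.46, 9.55 and 8.96 in HO, with overlapping groups and differences of -0.18 and -0.27 from WT. Kcnh2 (the cardiac repolarising channel) differed from WT by -0.07 in HO and 0.02 in HE. Kcna5 and Kcnq5, both known in vascular muscle, were in the low range, at means of 6.50 and 5.70.

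The auxiliary subunits include Kcne4, which of the 18 probe sets above the low range had the lowest p for HO against WT. Kcne4, a single-pass subunit that inhibits Kcnq1 and some Kcna channels, read 9.71, 9.66 and 9.91 in WT, 9.46, 9.64 and 9.66 in HE, and 9.78, 8.68 and 9.10 in HO. HO replicates 2 and 3 lay below every other array, and HO replicate 1 lay among the WT values. The difference of HO from WT was -0.57 ± 0.227 (SE; 95% interval -1.07 to -0.07; limma's unadjusted p = 0.0284, adjusted 0.992). It was -0.320 without HO replicate 2 and -0.866 without HO replicate 1, and the adjusted p ran from 0.697 to 1 over all alternatives. The unadjusted p by limma was 0.0302 with the replicate block, HO being lower in 2 of 3 same-numbered pairs, and 0.0571 in the fit without the filter. HE differed from WT by -0.17.

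Markers of some other cell types also differed between these arrays. For the neutrophil markers, 7 of 8 listed genes were measured and 6 tested, none at the floor on any array, and the summed intensity ran from 11301 to 47207 in WT, 12646 to 62534 in HE and 9240 to 26453 in HO. Their median relative to WT was 0.42 on HO replicate 1, -0.99 on HO replicate 2 and -0.83 on HO replicate 3, so the arrays with low Kcne4 were also low in neutrophil markers. On WT replicate 1, where Kcne4 read 9.71, it was -0.47. On WT replicate 2 it was 0.70 and on HE replicate 3 it was 0.98, and Kcne4 read 9.66 on each. On HE replicate 1 it was -0.51, where Kcne4 read 9.46. On HE replicate 2 it was 0.40, where Kcne4 read 9.64, and on WT replicate 3 it was -0.23, where Kcne4 read 9.91. The 2 tested adipocyte markers (of 6 listed, 4 measured) had a median of -1.38 on HO replicate 2, the array with low Kcna2, and of -0.84 on HE replicate 2, where Kcna2 read 9.04. The summed intensity of the 4 measured ones ran from 1402 to 2127 in WT, 1208 to 1964 in HE and 1066 to 2553 in HO, and 1 of them was at the floor on at least 1 array. For the other marker lists, the medians on HO replicate 2 ran from -0.31 (ciliated and cardiac muscle) to 0.52 (T cell). The part of any of these cell types in the channel values was not tested.

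Kcne2, a partner of Kcnq1 in gastric and other epithelia, read 9.68, 10.12 and 9.64 in WT, 9.67, 9.91 and 10.07 in HE, and 9.76, 9.53 and 9.63 in HO. Its groups overlapped, and HO differed by -0.18 from WT and by -0.24 from HE. The other Kcne partners of Kcnq1 in epithelium were low: Kcne3, which holds Kcnq1 open, had a mean of 6.99, and Kcne1, which slows it, was at the floor throughout.

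Beta subunits of the large-conductance calcium-activated (BK) channel follow. Kcnmb2 was measured by 2 probe sets that disagreed in sign. The first read 10.04, 9.50 and 9.66 in WT, 10.39, 9.81 and 9.56 in HE, and 10.30, 9.88 and 9.98 in HO, with overlap and a difference of 0.32 ± 0.22 for HO against WT (SE; 95% interval -0.17 to 0.80; limma's unadjusted p = 0.177). Between samples of the same number, HO minus WT was 0.25, 0.38 and 0.31, higher in 3 of 3 pairs, and with the replicate block the unadjusted p by limma was 0.0445 and the adjusted p 0.826. The second read 9.37, 9.51 and 9.30 in WT, 9.33, 9.55 and 9.03 in HE, and 9.71, 8.86 and 9.10 in HO, with a difference of -0.17. Kcnmb4 read 9.20 to 9.59 in WT, 9.18 to 9.38 in HE and 9.25 to 9.67 in HO, and Kcnmb1, the smooth muscle beta subunit, 9.04 to 9.13, 8.92 to 9.05 and 8.94 to 9.39. In both, the highest of 9 values was HO replicate 1, and the differences of HO from WT were 0.04 and 0.03. The other Kcnmb1 probe set, low at a mean of 6.79, gave -1.08 for HO minus WT and -1.12 for HE minus WT. Its SE was 0.818 for each in the fit without the filter. It was at the floor on HE replicate 2, and its groups overlapped. Kcnab2, a cytoplasmic beta subunit of Kcna channels, read 9.01, 8.87 and 8.80 in WT, 8.94, 9.18 and 8.34 in HE, and 9.07, 9.25 and 9.03 in HO. It was the 1 of 18 with HO above WT and no overlap, beside 3.98% of all tested, with a difference of 0.23 (interval -0.20 to 0.65). Kcnab1 differed by -0.03 and -0.02 from WT, and its HE values spread from 8.29 to 9.33. Kcnab1 and Kcnab2 each had a further, low probe set, read in the fit without the filter. That of Kcnab1, at a mean of 7.32, gave -0.55 for HO minus WT and -0.71 for HE minus WT (SE 0.369 for each). That of Kcnab2, at a mean of 5.84, gave 0.06 and 0.02 (SE 0.202 for each). The groups overlapped on these low probe sets.

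Of the inward rectifiers, Kcnj3 and Kcnj15 passed the low range. Kcnj3 (GIRK1), a G protein-gated channel subunit prominent in atrial muscle, read 9.53, 9.16 and 9.65 in WT, 9.19, 8.96 and 9.45 in HE, and 9.99, 9.48 and 9.25 in HO. The groups overlapped, and the difference between HO and HE, 0.37 ± 0.208 (SE; 95% interval -0.09 to 0.83), had the lowest unadjusted p of a channel in that comparison, 0.101 by limma (adjusted 1). Of 10 cardiac muscle markers, all were measured and none was at the floor. Their summed intensity was 30328 to 33707 in WT, 26710 to 45932 in HE and 27134 to 47873 in HO, highest on HO replicate 1, where Kcnj3 was also highest, and next on HE replicate 1, where Kcnj3 was not; their part in Kcnj3 was not tested. Kcnj15, an inward rectifier of kidney and gastric epithelium, read 9.18, 9.45 and 9.52 in WT, 9.42, 9.02 and 9.18 in HE, and 9.68, 8.60 and 9.22 in HO, a difference of -0.22 for HO against WT. Kcnj8 and Kcnj11, the pores of ATP-sensitive channels of vessels and of endocrine and muscle cells, were low with means of 8.25 and 6.62, as was Kcnj2 at 4.76.

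**Figure D3:**
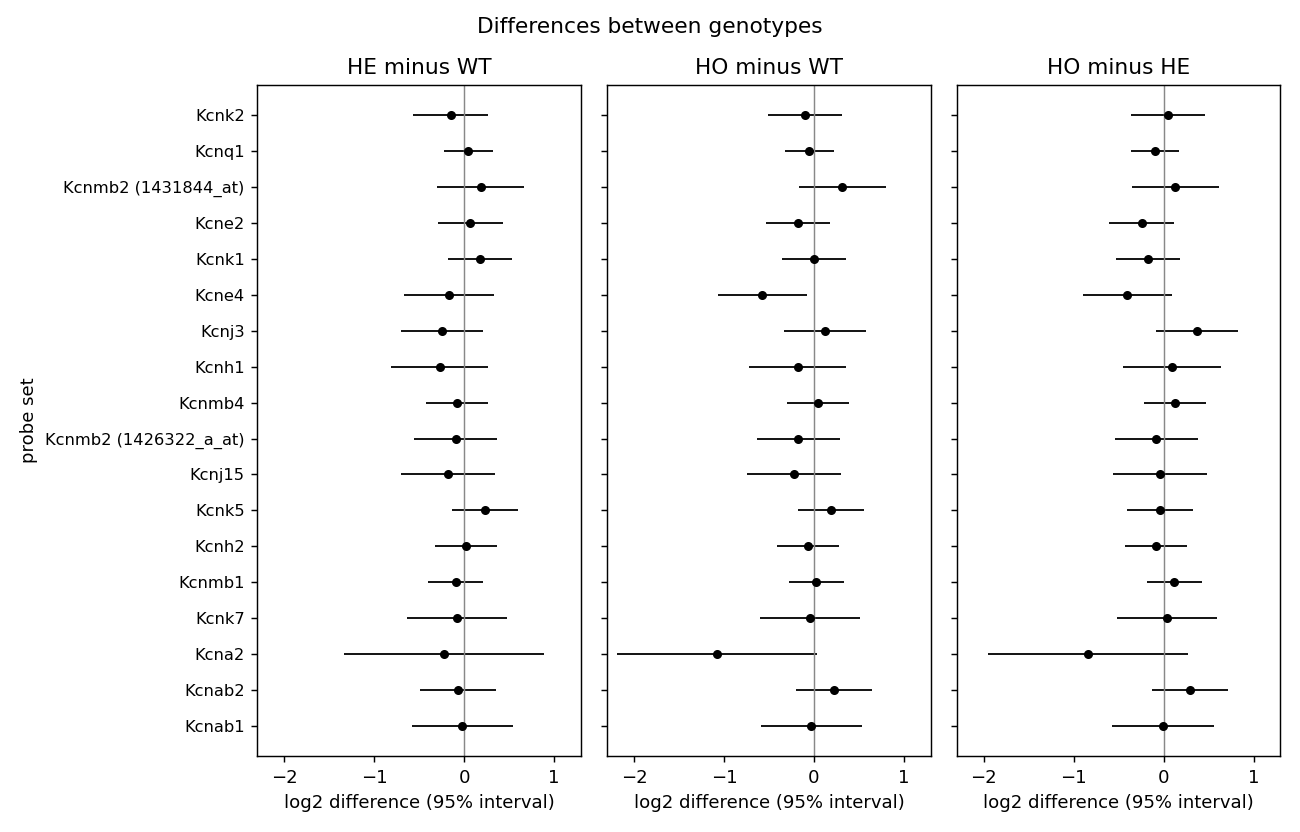
Differences in log2 intensity (horizontal axis) for HE minus WT, HO minus WT and HO minus HE, 1 panel each, for the 18 potassium channel probe sets above the low range; points are estimates and bars 95% intervals from limma, not adjusted for the number of tests. Every interval covers 0 except that of Kcne4 for HO minus WT, at -1.07 to -0.07, and Kcna2 has the widest.

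The order of the group means by number of CFTR alleles was counted as a description. The group means rose from WT through HE to HO for 1 of 18 probe sets (5.56%), 1 of the 2 for Kcnmb2, while this order was found for 18.4% of all probe sets tested. They were in falling order for 5 of 18 (27.8%), those of Kcne4, Kcna2, Kcnj15, Kcnab1 and the second of Kcnmb2, against 19.2% of all tested. Neither count is read as a result about the channels. For the remaining separations, 0 of 18 had HE below WT with no overlap beside 4.45% of all tested, and 0 of 18 had HO above HE beside 3.47%. The falling count depended on single arrays: it was 3 without HO replicate 2, 3 without HE replicate 1 and 8 without HO replicate 1. The rising count was 0 without HE replicate 1, and 2 without WT replicate 1, WT replicate 2, HO replicate 2 or HO replicate 3. Of the 18 channel probe sets, 15 were below their own mean over 9 arrays on HO replicate 2, 14 on HO replicate 3 and 2 on HO replicate 1. It was 5 to 10 on the WT and HE arrays. The share over all probe sets tested is not given for these counts, so they are not read as a result about the channels.

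Members known from epithelial chloride secretion and from smooth muscle were also counted as groups. Of 14 channel genes listed for epithelial secretion, 12 were measured, and 8 passed the low range (Kcnq1, Kcne2, Kcnmb2, Kcnmb4, Kcnk1, Kcnk2, Kcnk5 and Kcnj15). Of those, 0 passed the test in any of the 4 pairwise comparisons, also at an unadjusted p under 0.05; their median differences were -0.03 for HO and 0.06 for HE against WT, where all probe sets had -0.005 and -0.007. The 4 below the boundary were Kcne1, Kcne3, Kcnma1 and Kcnn4, the last being the intermediate-conductance calcium-activated channel of the basolateral membrane, with means of 8.37 and 5.20 on its 2 probe sets. Of 13 listed for smooth muscle, 11 were measured and 4 passed the low range (Kcnmb1, Kcna2, Kcnab1 and Kcnab2), with 0 passing and medians of 0 and -0.08.

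Within the low range the arrays showed several separations, read here from a fit without the filter (22626 probe sets). There, 6 of 90 channel probe sets had an unadjusted p under 0.05 by limma for HO against WT, beside 5.41% of all, 3 for HE against WT beside 4.38%, 4 for HO against HE beside 3.46% and 3 for the transgenic mean against WT beside 5.26%, and 0 passed the adjusted threshold. Kcnc1, Kcna7 and Kcnip1 are named because of their values, which were seen first. Kcnc1 (Kv3.1), a fast delayed rectifier of neurons, read 8.96, 8.74 and 8.77 in WT, 8.89, 8.84 and 9.05 in HE, and 8.36, 8.37 and 8.41 in HO. The 3 HO values lay close together and below every WT and HE value. The differences were -0.45 ± 0.0917 (SE) from WT and -0.55 from HE, with adjusted p of 0.87 and 0.852 by limma. Over the low range, 8 of 72 channel probe sets had HO below WT with no overlap, beside 7.86% of all low probe sets, and 5 of 72 had HO below HE, beside 3.78%. HE was below WT with no overlap in 1 of 72, that of Kcnj12 at -0.50, beside 7.04%. HO was above HE in 2 of 72, beside 3.44%.

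Kcna7, a Kv1 channel best known from skeletal muscle and heart, read 8.25, 8.45 and 6.29 in WT, 9.33, 9.46 and 9.28 in HE, and 6.21, 7.75 and 7.25 in HO. All HE values were above all others, with a difference of 1.69 ± 0.612 (SE) for HE minus WT, one of -2.29 for HO minus HE, and an adjusted p of 1 in both by limma. Kcna7 and 1 probe set of Kcnk3 were the 2 of 72 low channel probe sets with HE above WT and no overlap, beside 2.51% of all low probe sets. Kcnip1, a calcium-binding partner of Kcnd channels, had 4 low probe sets. Their differences for HO against WT were -0.75, -1.82, 0.44 and -0.05, and the groups did not overlap in the first 3. The last, with a mean of 8.48, was the strongest of the 4, and its groups overlapped. The probe set at 0.44 was the 1 of 72 low channel probe sets with HO above WT and no overlap, beside 2.21% of all low probe sets. The probe sets that gave -1.82 and 0.44, with means of 6.69 and 5.54, lay below the highest bacterial control mean of 7.47. The former was at the floor on HO replicate 3, so the size of their differences is not measured well. The probe set at -0.75 had a mean of 7.77, but its HO values of 7.40, 7.27 and 7.29 also lay below 7.47. The size of its difference is therefore not measured well either. Kcnma1, the BK channel pore, had 2 low probe sets. The stronger read 9.06, 9.14 and 9.62 in WT, 6.21, 7.62 and 9.06 in HE, and 9.45, 8.85 and 8.51 in HO, a difference of -1.64 ± 0.657 (SE) for HE against WT that HE replicates 1 and 2 carried (adjusted p = 1 by limma), while the weaker differed by -0.25. Lrrc26, the leucine-rich gamma subunit that lets BK channels of secretory epithelium open at rest, was above the low range and read 10.24, 9.65 and 9.73 in WT, 9.27, 9.47 and 9.09 in HE, and 9.97, 9.05 and 9.88 in HO. Its difference for HE against WT was -0.59 ± 0.243 (SE), with no overlap (limma's unadjusted p = 0.0322, adjusted 1).

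**Figure D4:**
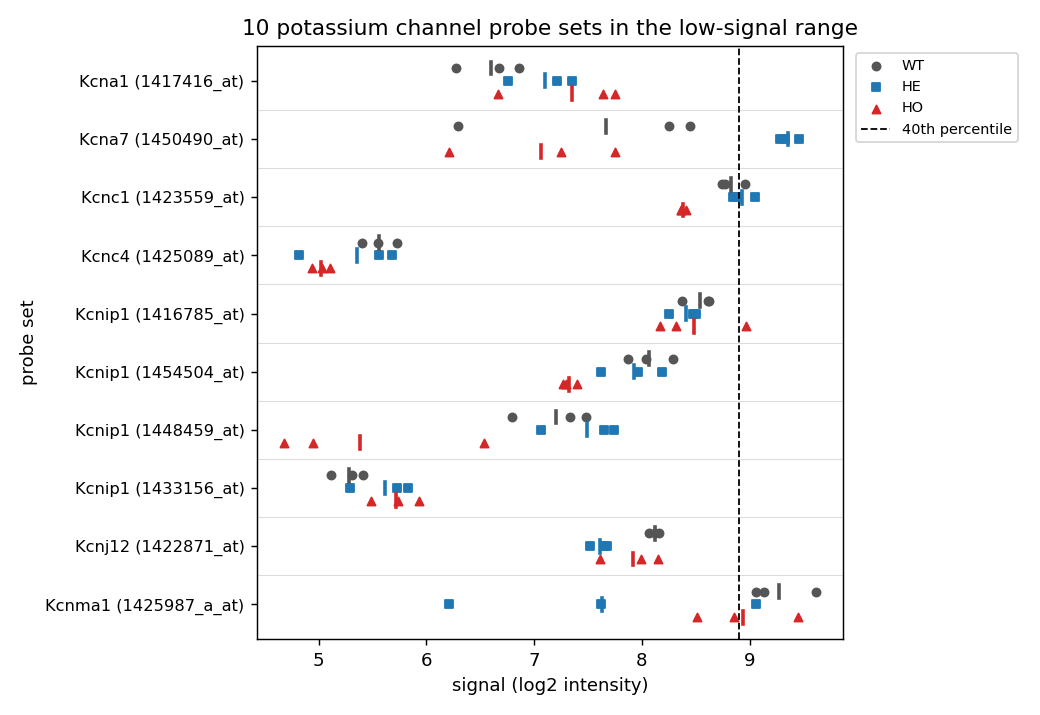
Log2 intensity (horizontal axis) of 10 low-range potassium channel probe sets, 1 row each, with a point per array (grey circles WT, blue squares HE, red triangles HO), a bar at each group mean and a dashed line at the 40th percentile; shown are those with an unadjusted p under 0.05 against WT or between HO and HE, with every Kcnip1 probe set. In the Kcnc1 row 3 HO values lie between 8.36 and 8.41 under all others, and in the Kcna7 row 3 HE values lie between 9.28 and 9.46 above all others.

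Genes that work with potassium channels were read from 2 further lists. Of 30 potassium transport partners (sodium pump subunits, cation-chloride cotransporters, pacemaker channels and regulators), 23 were measured and 14 tested, and 0 passed the adjusted threshold in any pairwise comparison. At an unadjusted p under 0.05 there was 1 of 14 for HO against WT (beside 4.49% of all tested), the sodium pump beta subunit Atp1b2 at -0.34 ± 0.137 (SE; limma's unadjusted p = 0.0298, adjusted 0.992), 1 of 14 for HE against WT (Lrrc26; beside 3.11%), 0 for HO against HE, and Atp1b2 again for the transgenic mean. Atp1b2 read 9.43, 9.56 and 9.49 in WT, 9.14, 9.06 and 9.47 in HE, and 9.24, 9.14 and 9.07 in HO. Abcc8 and Abcc9, the sulfonylurea receptors that pair with Kcnj11 and Kcnj8, were low like their pores, at 7.56 and 8.61. Of 18 chloride and sodium channel genes of lung epithelium, 14 were measured and 11 tested, with 0 past the adjusted threshold. At an unadjusted p under 0.05 there were 2 of 11 for HE against WT (beside 3.11% of all tested), the calcium-activated chloride channel Ano1 at -0.43 and the anion exchanger Slc26a6 at -0.32, and 0 in the other pairwise comparisons. Cftr, also tested, read 9.90, 10.23 and 9.82 in WT, 10.10, 9.96 and 10.02 in HE, and 9.91, 10.13 and 10.01 in HO. Its differences from WT were 0.03 in HO and 0.04 in HE. Whether its probe set reads RNA of the human transgene was not tested.

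The arrays were alike in scale. Their median intensities ran from 697 to 742 and 4.29% to 5.53% of values were floored, no pair was a copy, and 14 to 22 channel probe sets were above 8.90 on a given array. Markers of lung cells were present: all measured markers of alveolar type II (7), alveolar type I (6), club (5) and endothelial (7) cells were above the low range. Over the 15 marker lists, 0 genes passed the adjusted threshold, and list medians ran from -0.37 (neutrophil) to 0.11 (endothelial) for HO against WT and from -0.34 (B cell) to 0.27 (neutrophil) for HE against WT.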

How the data were processed

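Lung total RNA of 9 FVB/N samples was biotin-labelled and hybridised to MOE_430A arrays, per the labels. Sample titles gave the groups. In the deposited table each probe set has 1 linear intensity on each array; from the values, the authors scaled each array to a mean of 1500 after trimming 2% at either end. The sources used here do not name the summarising software, and detection calls were not used. The number of arrays limits the precision.

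Intensities below 25.5, the 5th percentile, were set to it, and log2 was taken. The 64 control probe sets were left out, as were probe sets whose mean was under the 40th percentile (8.90), leaving 13576. Group means were fitted over all 9 arrays with limma 3.58.1 (lmFit, eBayes) in R 4.3.3, with Benjamini-Hochberg adjustment, and the procedure was tested on simulated data. Gene symbols were those of the platform annotation, and all 62 genes matched RefSeq's table of GRCm38.p6 with 0 symbols changed.

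The members, roles and gene lists were chosen with earlier results of these data known. Named genes were those of the 5 lowest p in each pairwise comparison, those in the high range and the members of the epithelial and smooth muscle lists; other genes named are additions made after their values were seen. The titles give groups the same replicate numbers. Deviations of same-numbered HO and WT samples correlated at 0.193, 0.139 and 0.276, which met the criterion for pairing (over 0.1 in each). Those of HE and WT (0.301, 0.05 and 0.043) and of HO and HE (0.156, 0.15 and 0.028) did not meet it. The main fit had no replicate block. Its intervals, SEs and p-values for HO against WT therefore ignore this pairing, and values with the block are given as such.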

Additional observations from a re-analysis of the deposited data

How the results depend on the processing

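The count of potassium channel probe sets past the adjusted threshold was 0 in all 5 tests under every alternative run: quantile scaling or centring on the median, the filter dropped or moved to the 60th percentile, the floor dropped or raised to the 20th, the replicate block, limma with trend and robust moderation, HO replicate 2 counted as HE, only the arrays compared (not run for the F test), 1 probe set per gene, and leaving out each array. The replicate block left this count at 0 in each test and changed no other call; it moved the count at an unadjusted p under 0.05 only for HO against WT, from 1 to 3. Kcna2 fell under the filter when only HO and WT or only HO and HE were fitted, so it has no value there. The same held for Kcnab2 when only HE and WT were fitted. On leaving out an array, 17 to 19 channel probe sets were tested, so some single differences lack a value there too.

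The count of probe sets in rising order was 2 with quantile normalization, 2 with median centring, 6 without the filter, 0 with the 60th percentile filter and 4 with HO replicate 2 as HE, and 0 to 2 on leaving out an array. The count in falling order was 22 without the filter, 0 with the 60th percentile filter and 2 with HO replicate 2 as HE, and 3 to 8 on leaving out an array. Filters change how many probe sets are counted; the cause of the other moves was not tested. Under alternatives chosen after seeing the data, scaling and floor kept 1, 17 and 72 probe sets in the high, middle and low ranges, and leaving out an array gave 1, 16 to 18 and 71 to 73.

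Of 46 single differences of named and tested channels, 22 kept their sign under all alternatives and 24 turned, none past the threshold under any (lowest adjusted p by limma 0.654). With HO replicate 2 as HE, HO minus WT became 0.062 for Kcnj15, 0.010 for Kcnmb2 (second probe set), 0.073 for Kcnk2, 0.072 for Kcnh2, 0.096 for Kcnk7, 0.033 for Kcnab1 and 0.121 for Kcnk1. HE minus WT became -0.022 for Kcne2, 0.036 for Kcnab2 and -0.071 for Kcnh2, and HO minus HE became 0.077 for Kcne4 and 0.561 for Kcna2. With quantile normalization, HO minus WT became 0.001 for Kcnh2, 0.031 for Kcnk7, 0.061 for Kcnab1 and 0.045 for Kcnk1, and HE minus WT 0.055 for Kcnab1. With median centring, HO minus WT became 0.005 for Kcnq1, 0.014 for Kcnk7, 0.028 for Kcnab1 and 0.053 for Kcnk1, and HE minus WT 0.017 for Kcnab1.

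Leaving out each array in turn, HO minus WT ran from -0.007 to 0.347 for Kcnk5, -0.48 to 0.062 for Kcnj15, -0.414 to 0.010 for Kcnmb2 (second probe set), -0.376 to 0.001 for Kcnh1, -0.081 to 0.288 for Kcnj3, -0.2 to 0.073 for Kcnk2, -0.193 to 0.072 for Kcnh2, -0.127 to 0.017 for Kcnq1, -0.093 to 0.16 for Kcnmb4, -0.108 to 0.112 for Kcnmb1, -0.278 to 0.11 for Kcnk7, -0.187 to 0.061 for Kcnab1 and -0.13 to 0.121 for Kcnk1. HE minus WT ran from -0.048 to 0.365 for Kcnmb2 (first probe set), -0.216 to 0.046 for its second, -0.163 to 0.033 for Kcnmb4, -0.029 to 0.22 for Kcne2, -0.031 to 0.113 for Kcnq1, -0.254 to 0.169 for Kcnab2, -0.281 to 0.142 for Kcnk7, -0.081 to 0.103 for Kcnh2 and -0.18 to 0.294 for Kcnab1. With 3 arrays a group, differences under the half-widths given for the intervals could not be told from 0, and 72 of 90 probe sets had too little signal for the filter.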
